A study of Homo sapiens with 12 samples.

Results

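The change in gene expression between 24 and 48 h of vemurafenib was measured in COLO858, an established human melanoma cell line that carries BRAF V600E. The members are 4 of the 12 libraries of the series, 2 harvested after 24 h and 2 after 48 h in 0.2 μM vemurafenib. Vemurafenib blocks the mutant RAF kinase. The other libraries come from COLO858 in DMSO, the solvent, and from MMACSF, another BRAF V600E melanoma line that received the same treatments, with 2 libraries per group. COLO858 was grown in RPMI medium and MMACSF in DMEM/F12, with serum in both, and each replicate was a plate of its own. The plates harvested at 24 h and at 48 h are different plates, the labels give no time for DMSO, and the results stand for a single line, so the p-values measure the spread between plates of that line. Genes were compared when their mean reached 1 FPKM (mapped fragments per kilobase of gene transcript, set relative to all mapped fragments) at either time, without the small RNA genes named MIR, SNORD, SNORA and SCARNA, which left 12057 genes. The question was which genes moved on between the first and the second day in drug, since the study followed the cells toward a slowly cycling, drug-adapted state.

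In BRAF-mutant melanoma the RAF, MEK and ERK kinases keep cyclin D1 high, which lets cells pass from G1 into DNA replication. When the pathway is blocked, E2F target genes needed for replication and the genes needed for mitosis shut down, and cells collect in G1. Melanocytes arise from the neural crest, and melanoma cells can lose pigment-cell genes and regain genes of the crest, of Schwann cells and of matrix-producing cells. NGFR, a receptor that binds nerve growth factor weakly, is the usual marker of that state, and MITF is the master regulator of the pigment-cell state.

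The summed FPKM of the 6 COLO858 libraries ran from 670310 to 1013040, which is not a depth. MIR4461 alone held 14.1% to 43.4% of these sums, and more in replicate 2 than in replicate 1 of every group. Between 11546 and 11753 genes reached 1 FPKM in each library when small RNA genes were left out. The 2 replicates of a group correlated at 0.980 to 0.982 on log2(FPKM + 1) across the genes compared. Of the genes that define pigment cells, PMEL, a melanosome matrix protein, was at 236 and 249 FPKM at 24 h and 485 and 534 FPKM at 48 h, while TYR, tyrosinase, was near or below 1 FPKM in every library.

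At 48 h 283 genes were higher than at 24 h and 70 were lower (limma, Benjamini-Hochberg adjusted p under 0.01), which is 2.35% and 0.581% of the genes compared. Rises therefore made up 80.2% of the calls, although 6996 genes had a negative log2 fold-change and 5061 a positive value, and the median log2 fold-change over all genes was −0.07. With the replicate number as a block, 1814 genes rose and 2257 fell, which is 15% and 18.7%, and rises made up 44.6%. The 353 genes called without the block were all called with it, so the block added 3718 genes and removed none. At an unadjusted p under 0.05 without the block 1312 genes were higher and 1268 lower.

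The number of calls depended on single libraries. Without replicate 1 of the 24 h group 27 genes rose and 4 fell, and without its replicate 2 the counts were 55 and 7. Without replicate 1 of the 48 h group they were 108 and 8, and without its replicate 2 they were 63 and 8. Leaving out either DMSO library, which only lends its spread to the fit, gave 284 or 288 rises and 54 or 56 falls. Of 68 genes taken by the rule for naming genes that passed the threshold without the block, 16 passed it whichever of the 6 libraries was left out, all 68 kept their direction, and the highest adjusted p was 0.0553. In the text, a gene rose or fell when it passed the threshold without the block, and genes that passed it only with the block are named as such. Some of the latter had overlapping ranges at 24 and 48 h, with JUNB, PHLDA1, BOK, CTNNB1 and HSPA4 among them. Counts within a gene list compare with 2.35% rises and 0.581% falls over all genes without the block, and with 15% and 18.7% with it. All fold-changes are on the log2(FPKM + 1) scale, which understates the change of low genes.

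**Figure D1:**
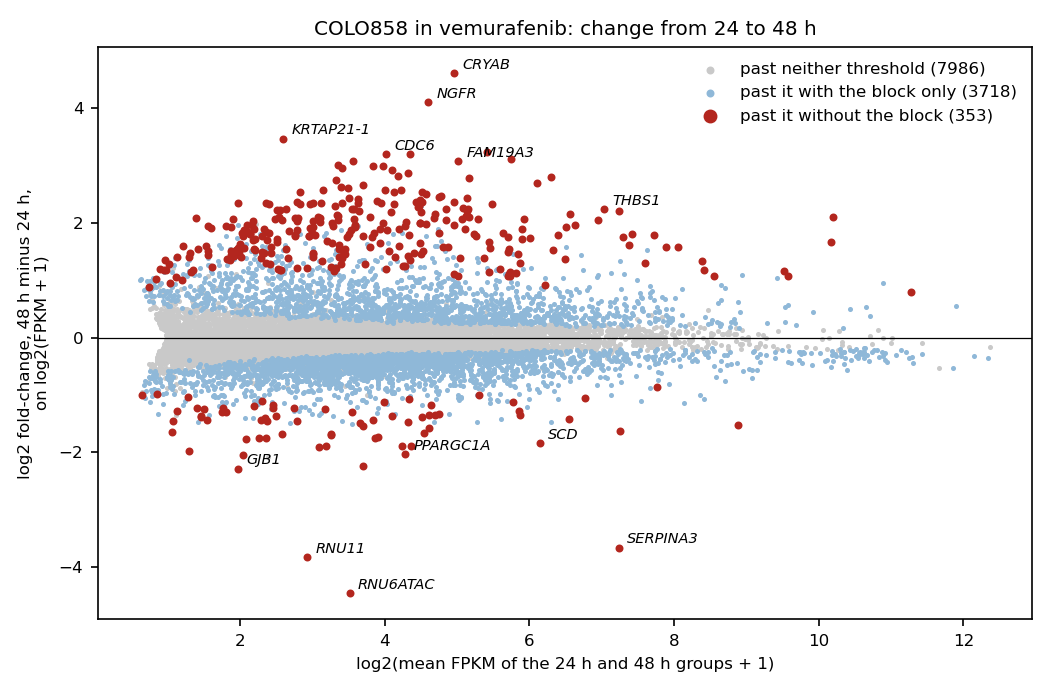
Change of every compared gene from 24 to 48 h in COLO858 (vertical axis, log2 fold-change) against its level (horizontal axis, log2 of the mean FPKM of both times plus 1). Each point is a gene, red for the 353 past the threshold without the block, blue for the 3718 past it with the block only and grey for the 7986 past neither. The red points lie mostly above 0, CRYAB and NGFR the highest, while the blue points lie on both sides.

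The gene that rose most was CRYAB (chr11:111779288-111794446, GRCh37), a small heat shock protein of muscle and lens that is also found in glia. Its level was 1.36 and 1.53 FPKM at 24 h and 56.3 and 61.2 FPKM at 48 h (log2 fold-change 4.61, standard error 0.17, limma adjusted p = 0.000347, with the block 5.12e-07). Under DMSO it was 0.366 and 0.164 FPKM, so the 48 h libraries stood far above every other library of the line. NGFR (chr17:47572655-47592370) came next, at 1.96 and 1.36 FPKM at 24 h and 49.9 and 39.8 FPKM at 48 h (log2 fold-change 4.11, standard error 0.20, limma adjusted p = 0.000672, with the block 5.12e-07). Its DMSO level was 2.89 and 2.82 FPKM, above both 24 h libraries, so NGFR was lowest at 24 h and highest at 48 h. The group means were 1.66 ± 0.423 FPKM at 24 h against 44.8 ± 7.09 FPKM at 48 h (SD, n = 2), a level 27 times as high. Both genes kept their call whichever library was left out.

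Of the other 8 of the 10 largest rises, 6 belong to the cell cycle. They are MYBL2, CDC6, CDC45, MCM5, DTL and IQGAP3, with log2 fold-changes of 3.01 to 3.24. MYBL2 is a transcription factor of dividing cells, and IQGAP3 is a scaffold protein of proliferating cells. DTL, an adaptor of the ubiquitin ligase that destroys the licensing factor CDT1, rose from 1.32 and 1.63 FPKM to 16.9 and 23.3 FPKM. FAM19A3, which encodes a small secreted protein expressed in brain, was at 5.03 and 6.82 FPKM at 24 h and 52.2 and 61.7 FPKM at 48 h (log2 fold-change 3.07, limma adjusted p = 0.00124, with the block 5.77e-07). KRTAP21-1, a hair keratin-associated protein gene, was listed at 0 in both DMSO and both 24 h libraries and at 8.75 and 11.5 FPKM at 48 h. A value of exactly 0 can be a failed estimate, so no fold is given for it.

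The 10 largest falls were of other kinds of genes. SERPINA3 (chr14:95078721-95090392), the secreted protease inhibitor alpha-1-antichymotrypsin, was at 278 and 279.6 FPKM at 24 h and 20.6 and 21.8 FPKM at 48 h (log2 fold-change −3.66, standard error 0.13, limma adjusted p = 0.000347, with the block 1.49e-07). Its DMSO level was 80.2 and 87.6 FPKM, so it was highest at 24 h and lowest at 48 h, 13.1 times as high at 24 h as at 48 h. GJB1, the gap junction protein connexin 32, was at 5.86 and 5.2 FPKM at 24 h and 0.523 and 0.181 FPKM at 48 h (log2 fold-change −2.28, limma adjusted p = 0.00243, with the block 1.93e-06) against 40.4 and 32.5 FPKM under DMSO. It stepped down at each time and ended below 1 FPKM. SYT17 of the synaptotagmin family fell from 22.9 and 18 FPKM to 3.77 and 3.27 FPKM. PPARGC1A (chr4:23756664-23905712), the coactivator PGC1-alpha that drives mitochondrial genes, was at 26 and 34.6 FPKM at 24 h and 5.94 and 7.34 FPKM at 48 h (log2 fold-change −2.03, limma adjusted p = 0.00446, with the block 1.45e-06). Under DMSO it was 5.98 and 8.15 FPKM, a range that overlapped that of the 48 h libraries, so the 24 h libraries stood apart from both.

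UTS2, which encodes the vasoactive peptide urotensin 2, fell from 4.91 and 6.41 FPKM to 0.512 and 0.714 FPKM. STRA6, the membrane receptor for vitamin A transport, fell from 32.7 and 30.3 FPKM to 8.69 and 6.89 FPKM, and OGDHL, a mitochondrial enzyme, from 13.8 and 11.2 FPKM to 2.36 and 2.83 FPKM. The 2 largest falls were of small nuclear RNA genes that the naming rule did not leave out. RNU6ATAC, an RNA of the minor spliceosome, was at 22.2 and 19.6 FPKM at 24 h and was listed at 0 in both 48 h libraries. RNU11, of the same spliceosome, was at 11.6 and 14.8 FPKM at 24 h and was listed at 0 in both 48 h and both DMSO libraries. These RNAs carry no poly(A) tail as a rule and the libraries were made from poly(A) RNA. UBE2F-SCLY, a readthrough of the neighbouring genes UBE2F and SCLY with which it shares reads, was at 3.34 and 2.54 FPKM at 24 h, and its 48 h values of 0 and 0.00166 FPKM are uncertain for that reason.

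**Figure D2:**
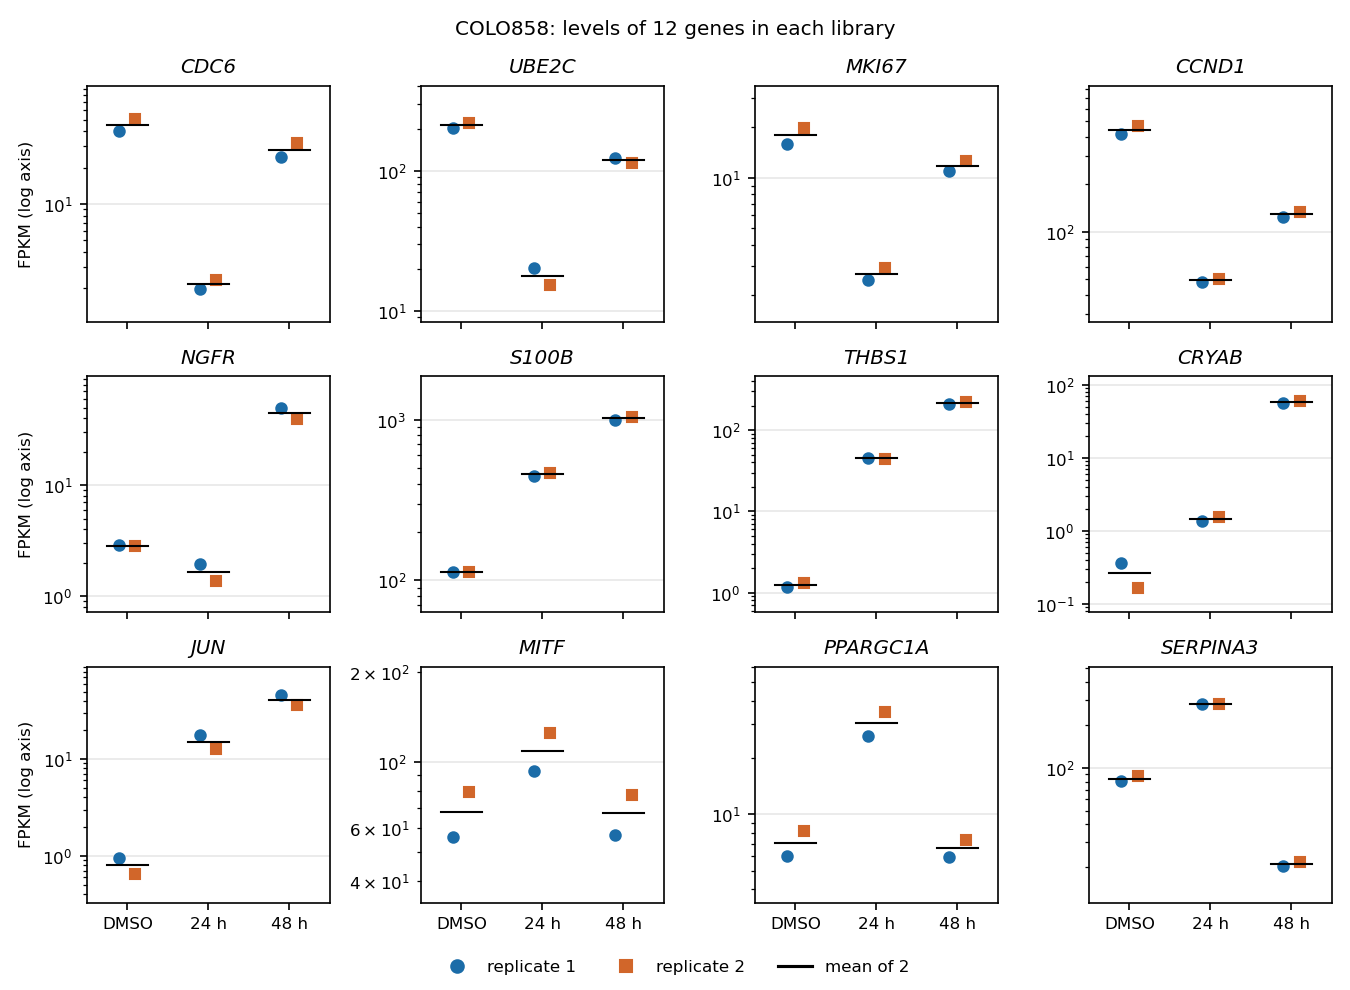
Levels of 12 genes in the 6 COLO858 libraries, in FPKM on log axes that differ between panels, with circles for replicate 1, squares for replicate 2 and a line at the mean of the 2. CDC6, UBE2C, MKI67, CCND1 and NGFR were lowest at 24 h, S100B, THBS1, CRYAB and JUN climbed at each step, and MITF, PPARGC1A and SERPINA3 were highest at 24 h.

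Genes of the cell cycle made up the largest listed group among the rises. The lists of DNA replication, of G2 and mitosis, and of DNA repair together hold 138 compared genes, of which 92 rose and 0 fell, and these 92 are 32.5% of all 283 rises. In bulk RNA, fewer cells of a type and less RNA per cell cannot be told apart, so a level here is an average over cycling and arrested cells. Lists share some members, and each count below is of 1 list. Of the 283 rises 146 were in no list, and of the 70 falls 60, so the lists do not cover the whole change.

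Of the 50 genes of DNA replication and S phase 38 rose and 0 fell, and with the block 49 rose. Their median log2 fold-change was 1.97, against −0.07 over all genes, and it was positive for all 50. When replicate 1 of the 24 h group was left out, 9 rose. Against the same DMSO libraries their median stood at −2.52 at 24 h and −0.56 at 48 h. The FPKM of the list summed to 339.6 and 347 at 24 h, to 1528 and 1566 at 48 h, and to 2381 and 2405 under DMSO. The 48 h libraries thus lay between the other groups and overlapped with neither.

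CDC6 (chr17:38444131-38460909), which loads the replicative helicase onto origins, was at 1.97 and 2.33 FPKM at 24 h and 24.4 and 32 FPKM at 48 h (log2 fold-change 3.20, standard error 0.21, limma adjusted p = 0.00124, with the block 5.12e-07). Under DMSO it was 40.0 and 50.5 FPKM, above both 48 h libraries. CDC45, a subunit of the active helicase, was at 2.97 and 3.06 FPKM at 24 h and 35.4 and 35.9 FPKM at 48 h (log2 fold-change 3.19, limma adjusted p = 0.000672, with the block 5.12e-07), against 59.6 and 56.1 FPKM under DMSO. MCM5 belongs to the ring of the helicase itself. It was at 12.6 and 7.95 FPKM at 24 h and 105 and 84.2 FPKM at 48 h (log2 fold-change 3.11, limma adjusted p = 0.0021, with the block 5.12e-07) and at 157 and 112 FPKM under DMSO. In all 3 genes the 24 h libraries were far below the rest and the 48 h libraries had not passed the DMSO libraries.

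Of the 58 genes of G2 and mitosis 41 rose and 0 fell, and with the block all 58 rose. Their median was 1.91, and against the DMSO libraries it stood at −2.54 at 24 h and −0.66 at 48 h. Leaving out replicate 1 of the 24 h group left 3 rises. MYBL2, which works with the complex that switches on mitotic genes, was at 7.02 and 7.29 FPKM at 24 h and 83.5 and 68.8 FPKM at 48 h (log2 fold-change 3.24, standard error 0.18, limma adjusted p = 0.000999, with the block 6.67e-07). Under DMSO it was 74 and 58.8 FPKM, a range that overlapped that of the 48 h libraries. UBE2C (chr20:44441215-44445596), the ubiquitin-conjugating enzyme of the anaphase-promoting complex, was at 20.3 and 15.2 FPKM at 24 h and 123 and 114 FPKM at 48 h (log2 fold-change 2.69, limma adjusted p = 0.00124, with the block 2.06e-06). CDK1, the kinase that starts mitosis, was at 3.58 and 5.07 FPKM at 24 h and 23.5 and 38.8 FPKM at 48 h (log2 fold-change 2.56, limma adjusted p = 0.00734, with the block 1.30e-06). TOP2A, the topoisomerase that untangles chromosomes, was at 10.6 and 13.4 FPKM at 24 h and 47.9 and 64 FPKM at 48 h (log2 fold-change 2.12, limma adjusted p = 0.00473, with the block 8.06e-07). MKI67 (chr10:129894923-129924687), which encodes the proliferation marker Ki-67, was at 2.47 and 2.91 FPKM at 24 h and 10.9 and 12.5 FPKM at 48 h (log2 fold-change 1.79, limma adjusted p = 0.00354, with the block 2.90e-06) and at 15.9 and 19.8 FPKM under DMSO. Each of these genes was lowest in both 24 h libraries.

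Of 30 compared DNA repair genes 13 rose and 0 fell, and with the block 27 rose, with a median of 1.25. RMI2, a subunit of the BLM dissolvasome, was at 1.61 and 1.48 FPKM at 24 h and 14.1 and 14.3 FPKM at 48 h (log2 fold-change 2.58, limma adjusted p = 0.0011, with the block 7.47e-07). UBE2T, the ubiquitin-conjugating enzyme of the Fanconi pathway, was at 8.07 and 10.3 FPKM at 24 h and 46.9 and 55.8 FPKM at 48 h (log2 fold-change 2.36, limma adjusted p = 0.00209, with the block 5.12e-07). Without replicate 1 of the 24 h group, or without replicate 2 of the 48 h group, 1 of the 30 rose.

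Promoters of the genes that rose were searched for letters that E2F and the mitotic complexes are known to read, since E2F is known for replication genes and the CHR element for mitotic genes. The E2F letters were TTTCCCGC, TTTGGCGC, TTTCGCGC and TTTGCCGC, and the letters of the cell cycle homology region, CHR, were TTTGAA, searched on both strands from 250 bases before to 50 bases after the start in RefSeq's promoters (table build GRCh38.p14). The stretches printed run from 100 bases before to 25 bases after the start, with coordinates from an exact match to GRCh37. They show where the letters lie in 3 genes of each list that rose and hold them there. These need not be the 3 such genes that rose most. For DNA replication, the capitals mark the E2F letters on either strand.
CDC6 (chr17:38444031-38444155, + strand): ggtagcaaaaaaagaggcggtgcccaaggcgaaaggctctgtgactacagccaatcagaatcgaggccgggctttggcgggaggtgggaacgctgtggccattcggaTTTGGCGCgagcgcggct
DTL (chr1:212208990-212209114, + strand): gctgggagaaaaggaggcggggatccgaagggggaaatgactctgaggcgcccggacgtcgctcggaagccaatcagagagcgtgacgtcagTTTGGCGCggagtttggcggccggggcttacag
E2F1 (chr20:32274167-32274291, - strand): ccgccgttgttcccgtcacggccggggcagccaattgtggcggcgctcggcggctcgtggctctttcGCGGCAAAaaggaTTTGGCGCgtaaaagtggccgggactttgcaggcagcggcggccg
For G2 and mitosis, the capitals mark the CHR letters on either strand.
NUSAP1 (chr15:41624979-41625103, + strand): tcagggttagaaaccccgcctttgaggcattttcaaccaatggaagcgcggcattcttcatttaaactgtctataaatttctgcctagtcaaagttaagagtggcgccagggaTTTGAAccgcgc
ANLN (chr7:36429371-36429495, + strand): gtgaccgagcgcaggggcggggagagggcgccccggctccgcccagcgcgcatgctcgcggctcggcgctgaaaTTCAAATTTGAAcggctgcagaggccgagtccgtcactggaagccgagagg
KIF18B (chr17:43025117-43025241, - strand): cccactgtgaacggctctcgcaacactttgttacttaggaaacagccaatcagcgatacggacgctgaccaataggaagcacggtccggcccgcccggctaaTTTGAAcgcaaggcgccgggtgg
DTL and CDC6 were described above. E2F1, the transcription factor itself, was at 2.17 and 2.19 FPKM at 24 h and 26.3 and 22.5 FPKM at 48 h (log2 fold-change 2.99, limma adjusted p = 0.00113, with the block 7.47e-07). NUSAP1, a spindle protein, was at 5.38 and 7.47 FPKM at 24 h and 32.8 and 41.6 FPKM at 48 h (log2 fold-change 2.37, limma adjusted p = 0.00283, with the block 5.12e-07). ANLN, the cytokinesis scaffold anillin, was at 5.32 and 6.84 FPKM at 24 h and 30.5 and 40.3 FPKM at 48 h (log2 fold-change 2.36, limma adjusted p = 0.00371, with the block 8.06e-07). KIF18B, a kinesin that shortens microtubules, was at 1.61 and 2.04 FPKM at 24 h and 15.8 and 11.2 FPKM at 48 h (log2 fold-change 2.35, limma adjusted p = 0.0035, with the block 2.96e-05). All 4 were picked among the genes that rose, so their lower values at 24 h follow from that choice.

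E2F letters were found in 22 of 41 promoters of DNA replication genes, which is 53.7%, in 3 of 51 promoters of G2 and mitosis genes and in 6 of 25 of DNA repair genes, against 3.33% of all 27305 promoters of the table. CHR letters were found in 38 of 51 promoters of G2 and mitosis genes, which is 74.5%, and in 1 of 41 of DNA replication genes, against 15.4% of all promoters. Among 206 genes that rose and had a promoter in the table, 18.4% held E2F letters and 25.7% held CHR letters. For 48 genes that fell these shares were 2.08% and 6.25%. Over the 8618 compared genes with a promoter the shares were 5.4% and 9.24%. The CCAAT box, CCAAT, was in 40 of 51 promoters of G2 and mitosis genes, against 35.7% of all. AP-1 letters, TGAGTCA, were in 2.43% of promoters of genes that rose and 4.17% of genes that fell, against 2.87% of the compared genes. These are matches of letters and describe the sequences only.

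**Figure D3:**
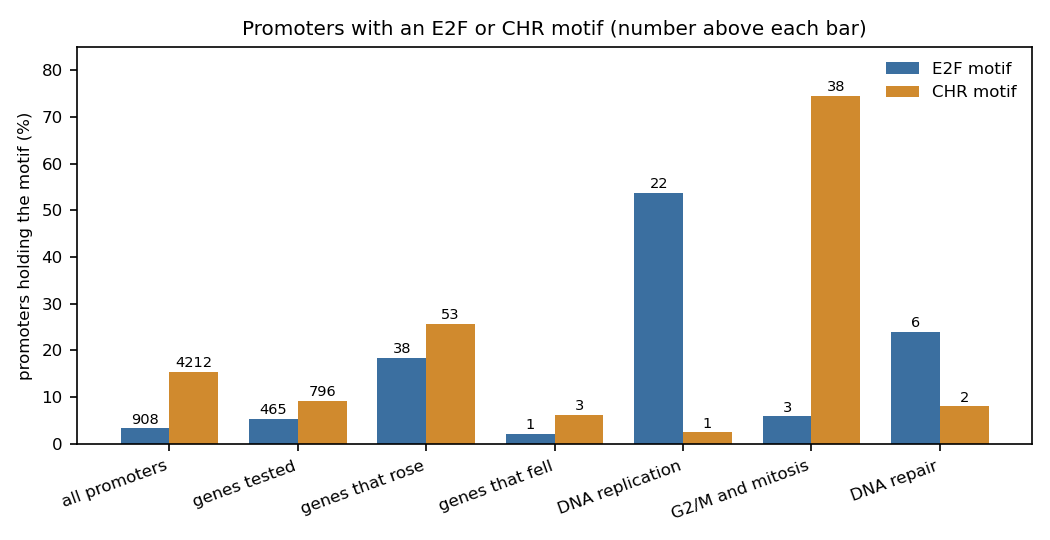
Share of promoters, in percent, that hold an E2F motif (blue) or a CHR motif (orange) on either strand, for all promoters of the table, for the genes compared, for genes that rose or fell and for the cell cycle lists, with the number of promoters above each bar. E2F motifs were most frequent in DNA replication genes, at 53.7%, and CHR motifs in G2 and mitosis genes, at 74.5%.

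Upstream of replication, 3 of 18 G1 cyclins, CDK inhibitors and E2F genes rose, and with the block 9 rose and 2 fell. E2F1, which rose, is not in this list, since it is counted with DNA replication. CCND1 (chr11:69455924-69469242), which encodes cyclin D1, was at 48.1 and 50.4 FPKM at 24 h and 125 and 134 FPKM at 48 h (log2 fold-change 1.38, standard error 0.13, limma adjusted p = 0.00283, with the block 1.28e-06). Under DMSO it was 418 and 466 FPKM, so both 48 h libraries remained below the DMSO range. CDKN2C, which encodes the CDK4 and CDK6 inhibitor p18, was at 5.44 and 5.29 FPKM at 24 h and 23.2 and 20.2 FPKM at 48 h (log2 fold-change 1.83, limma adjusted p = 0.00215, with the block 3.63e-06), above its DMSO level of 13.1 and 13.7 FPKM. E2F7, a repressor among the E2F factors, was at 0.881 and 1.06 FPKM at 24 h and 3.8 and 4.41 FPKM at 48 h (log2 fold-change 1.37, limma adjusted p = 0.00677, with the block 2.97e-05). CDKN1B, the inhibitor p27, fell only with the block, from 71.2 and 71.1 FPKM to 43.9 and 54.1 FPKM. E2F3 also fell only with the block, from 8.25 and 10.5 FPKM to 5.89 and 7.72 FPKM.

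Polyadenylated histone genes, here histone genes that can yield transcripts with a poly(A) tail, had 17 compared members. None of them passed the threshold, and the block gave 6 rises and 1 fall. HIST1H1C, a linker histone, was at 24.2 and 17 FPKM at 24 h and 65.3 and 45.3 FPKM at 48 h (log2 fold-change 1.38, limma adjusted p = 0.0747, with the block 8.15e-05). HIST1H4H was at 15.5 and 11.8 FPKM at 24 h and 32.9 and 24.9 FPKM at 48 h and HIST1H3H at 6.27 and 2.77 FPKM at 24 h and 15.2 and 6.14 FPKM at 48 h, and both passed only with the block. HIST3H2A was the member that fell with it, from 12.2 and 7.66 FPKM to 6.12 and 4.17 FPKM. Their level was above DMSO at both times, with a median of 1.27 at 24 h and 1.90 at 48 h, which none of the other cell cycle lists showed.

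**Figure D4:**
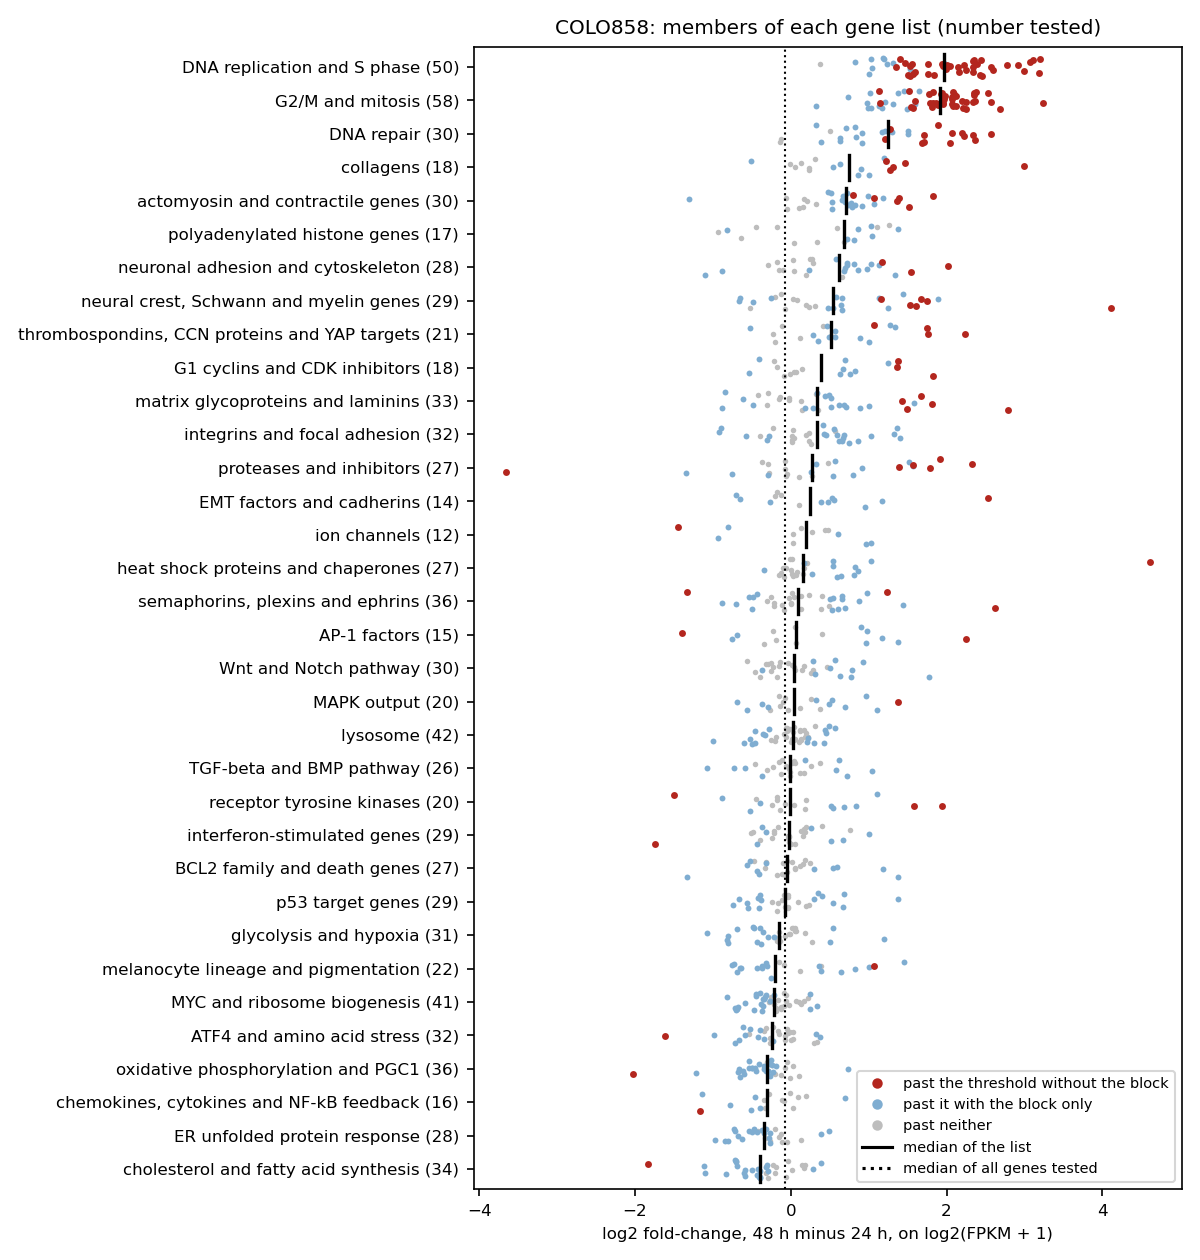
Log2 fold-change from 24 to 48 h in COLO858 (horizontal axis) of each member of the gene lists with 10 or more compared members, with the number compared in brackets. Points are genes, red when past the threshold without the block, blue with the block only and grey for neither, the black bars are list medians and the dotted line is the median of all genes. DNA replication and mitosis genes lie furthest right, with medians of 1.97 and 1.91, and cholesterol synthesis and unfolded protein response genes furthest left.

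MAPK output genes are switched on by ERK and serve as a readout of the drug's target pathway. Of 20 compared, 1 rose and 0 fell, and with the block 7 rose and 4 fell, with a median of 0.04. The median against DMSO was −2.01 at 24 h and −1.72 at 48 h, so as a list they stayed low. The member that rose was CCND1. EPHA2, an ephrin receptor, and FOSL1, an AP-1 factor, rose only with the block. EPHA2 was at 5.11 and 3.02 FPKM at 24 h and 10.8 and 8.63 FPKM at 48 h, and FOSL1 was at 7.75 and 6.64 FPKM at 24 h and 16.2 and 13.8 FPKM at 48 h against 69.8 and 59.9 FPKM under DMSO. MYC, ETV4 and PHLDA1 fell only with the block. MYC, the growth regulator, was at 66.5 and 57.9 FPKM at 24 h and 39.7 and 36.3 FPKM at 48 h (log2 fold-change −0.70, limma adjusted p = 0.0504, with the block 5.88e-05), and ETV4, an ETS factor, was at 4.86 and 4.06 FPKM at 24 h and 2.99 and 2.38 FPKM at 48 h against 196 and 149.9 FPKM under DMSO. PHLDA1 was at 222 and 280.2 FPKM at 24 h and 164 and 226 FPKM at 48 h.

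AP-1 factors are dimers of the JUN, FOS, ATF and MAF families that bind short DNA elements. Of 15 compared, 1 rose and 1 fell, and with the block 6 rose and 3 fell. FOSL2 was at 3.77 and 2.54 FPKM at 24 h and 21.2 and 16.1 FPKM at 48 h (log2 fold-change 2.25, standard error 0.25, limma adjusted p = 0.00428, with the block 1.52e-06), above its DMSO level of 2.44 and 1.57 FPKM. FOS moved the other way, at 6.83 and 5.91 FPKM at 24 h and 1.84 and 1.74 FPKM at 48 h (log2 fold-change −1.40, standard error 0.16, limma adjusted p = 0.00515, with the block 1.85e-05). JUN, the factor that the study followed by its protein c-Jun, was at 17.5 and 12.8 FPKM at 24 h and 45.6 and 36 FPKM at 48 h (log2 fold-change 1.38, standard error 0.22, limma adjusted p = 0.0158, with the block 1.04e-05). It missed the threshold without the block, and its libraries nonetheless did not overlap, from 0.956 and 0.643 FPKM under DMSO upward. ATF3, a stress-induced member, rose only with the block, from 9.76 and 12.4 FPKM to 24.2 and 28.3 FPKM. JUNB, at 24.4 and 9.15 FPKM at 24 h and 11.3 and 7.1 FPKM at 48 h, fell only with the block, and its ranges at the 2 times overlapped.

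None of 29 p53 target genes passed the threshold, and the block gave 7 rises and 9 falls, with a median of −0.08. CDKN1A, the cell cycle inhibitor p21, was at 115 and 110.3 FPKM at 24 h and 186 and 174 FPKM at 48 h (log2 fold-change 0.67, limma adjusted p = 0.0274, with the block 2.78e-05). FAS, a death receptor, was at 3.67 and 4.95 FPKM at 24 h and 11.2 and 14.4 FPKM at 48 h (log2 fold-change 1.38, limma adjusted p = 0.0117, with the block 2.63e-05), and PHLDA3, an inhibitor of AKT, at 50.0 and 29.7 FPKM at 24 h and 78.3 and 49.7 FPKM at 48 h. Those 3 rose only with the block. TP53I3 at 20.2 and 23.4 FPKM at 24 h and 12.5 and 12.8 FPKM at 48 h, TP53INP1 at 17.7 and 24.9 FPKM at 24 h and 10.8 and 15.4 FPKM at 48 h and BBC3 fell only with it. BBC3 encodes PUMA, a killer protein of the BCL2 family, and was at 14.5 and 9.89 FPKM at 24 h and 8.27 and 7.4 FPKM at 48 h.

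Of 27 BCL2 family and death genes none passed the threshold either, and with the block 5 rose and 6 fell. BCL2L11, which encodes the killer protein BIM, was at 37.1 and 45.9 FPKM at 24 h and 13.9 and 17.8 FPKM at 48 h (log2 fold-change −1.33, limma adjusted p = 0.0334, with the block 5.15e-05), far above its DMSO level of 3.39 and 6.09 FPKM at both times. BMF, of the same class, was at 29.8 and 35.8 FPKM at 24 h and 21.6 and 23.4 FPKM at 48 h. BCL2, the survival protein, was at 1.63 and 2.09 FPKM at 24 h and 5.56 and 5.43 FPKM at 48 h (log2 fold-change 1.19, limma adjusted p = 0.0135, with the block 0.000452), and BOK was at 13.6 and 7.35 FPKM at 24 h and 19.4 and 12.5 FPKM at 48 h. BCL2L11 and BMF fell, and BCL2 and BOK rose, only with the block.

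The melanocyte lineage list, which holds the pigment enzymes and their regulators, had 22 compared members. PMEL rose and 0 fell, and with the block 7 rose and 11 fell, with a median of −0.20. The median against DMSO was 1.36 at 24 h and 1.65 at 48 h, so as a list they stood above DMSO at both times. PMEL was at 65.9 and 63.3 FPKM under DMSO and stepped up at each time (log2 fold-change 1.07, standard error 0.12, limma adjusted p = 0.00515, with the block 8.09e-06). MITF (chr3:69788607-70017487) was at 93 and 125 FPKM at 24 h and 57 and 77.6 FPKM at 48 h (log2 fold-change −0.69, standard error 0.25, limma adjusted p = 0.175, with the block 3.52e-05), and its 48 h range overlapped the DMSO range of 56.2 and 79.2 FPKM. TYR, which encodes the enzyme tyrosinase, was at 1.21 and 1.15 FPKM at 24 h and 0.356 and 0.282 FPKM at 48 h (log2 fold-change −0.73, limma adjusted p = 0.034, with the block 0.0058), near or below 1 FPKM throughout. TRPM1, a cation channel and MITF target, was at 10.7 and 10.0 FPKM at 24 h and 4.91 and 6.68 FPKM at 48 h. MITF, TYR and TRPM1 fell only with the block. APOE, a lipid carrier, at 41.1 and 17.7 FPKM at 24 h and 96.9 and 59.7 FPKM at 48 h, and GPM6B, a membrane glycoprotein, at 28.9 and 31.3 FPKM at 24 h and 55.4 and 67.4 FPKM at 48 h, rose only with it.

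Of 29 neural crest, Schwann and myelin genes 6 rose and 0 fell, and with the block 16 rose and 4 fell, with a median of 0.54. After NGFR the largest rises were of NES and ANXA1. NES, the intermediate filament nestin of neural progenitors, was at 68.9 and 72.7 FPKM at 24 h and 246 and 236 FPKM at 48 h (log2 fold-change 1.75, standard error 0.13, limma adjusted p = 0.00145, with the block 9.75e-07). Under DMSO it was 123 and 114 FPKM, so it was lowest at 24 h. ANXA1, annexin A1, was at 19.4 and 20.4 FPKM at 24 h and 61.1 and 69.9 FPKM at 48 h (log2 fold-change 1.67, limma adjusted p = 0.00306, with the block 1.88e-06). S100B, a calcium-binding protein of Schwann cells and melanocytes, was at 444 and 468 FPKM at 24 h and 996 and 1038 FPKM at 48 h (log2 fold-change 1.16, standard error 0.11, limma adjusted p = 0.00299, with the block 1.61e-06), against 113 and 113 FPKM under DMSO. It thus climbed at both steps. SOX6, SNAI2 and MBP fell only with the block. SNAI2, a neural crest transcription factor, was at 29.8 and 36.7 FPKM at 24 h and 18.4 and 23.4 FPKM at 48 h, SOX6 was at 20.5 and 28 FPKM at 24 h and 13 and 16.7 FPKM at 48 h, and MBP, myelin basic protein, was at 14 and 13.8 FPKM at 24 h and 9.63 and 9.66 FPKM at 48 h. All 3 were still above their DMSO libraries at 48 h. Without replicate 1 of the 24 h group NGFR alone of the list was past the threshold.

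Neuronal adhesion and cytoskeleton genes had 28 compared members, of which 3 rose and 0 fell, and with the block 15 rose and 2 fell, with a median of 0.62. CNTN6, the adhesion protein contactin 6, was at 2.02 and 2.73 FPKM at 24 h and 10.3 and 15.5 FPKM at 48 h (log2 fold-change 2.02, standard error 0.23, limma adjusted p = 0.0045, with the block 1.28e-05), against 0.518 and 0.676 FPKM under DMSO. NCAM1, the neural cell adhesion molecule, was at 1.19 and 1.48 FPKM at 24 h and 5.3 and 6.33 FPKM at 48 h (log2 fold-change 1.54, limma adjusted p = 0.00362, with the block 2.74e-05). It was flat to 24 h, with 1.31 and 1.39 FPKM under DMSO. TUBA1A, an alpha-tubulin of neurons, was at 198 and 222 FPKM at 24 h and 448 and 499 FPKM at 48 h (log2 fold-change 1.17, limma adjusted p = 0.00562, with the block 1.77e-06). L1CAM, FYN and MAP2, which the study singled out, rose only with the block. L1CAM, an adhesion molecule of axons, was at 92.7 and 81.3 FPKM at 24 h and 212 and 173 FPKM at 48 h (log2 fold-change 1.13, limma adjusted p = 0.015, with the block 4.75e-06). The kinase gene FYN was at 16.9 and 19.4 FPKM at 24 h and 33.5 and 43.4 FPKM at 48 h (log2 fold-change 1.03, limma adjusted p = 0.0242, with the block 2.43e-05). MAP2, a dendrite microtubule protein, was at 3.06 and 4.66 FPKM at 24 h and 9.71 and 12.6 FPKM at 48 h (log2 fold-change 1.33, limma adjusted p = 0.0171, with the block 7.84e-05). In all 3 the 48 h libraries lay above both 24 h libraries. TUBB4A and NEFL fell only with the block, the neurofilament gene NEFL from 52.2 and 52 FPKM to 26.6 and 28.8 FPKM and TUBB4A, a neuronal beta-tubulin, from 84.4 and 54.7 FPKM to 37 and 26 FPKM.

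Matrix genes encode the proteins that cells lay down around themselves. Of 33 matrix glycoproteins and laminins 5 rose and 0 fell, and with the block 18 rose and 4 fell, with a median of 0.34. MATN2, the matrix adaptor matrilin 2, was at 18.8 and 18.9 FPKM at 24 h and 128 and 145 FPKM at 48 h (log2 fold-change 2.79, standard error 0.16, limma adjusted p = 0.000999, with the block 5.12e-07), against 0.436 and 0.601 FPKM under DMSO. MGP, an inhibitor of calcification, was at 14.5 and 16.6 FPKM at 24 h and 49.5 and 65.6 FPKM at 48 h (log2 fold-change 1.81, limma adjusted p = 0.00428, with the block 4.46e-06). SPARC, a secreted collagen-binding protein, was at 502 and 598 FPKM at 24 h and 1564 and 1958 FPKM at 48 h (log2 fold-change 1.67, limma adjusted p = 0.00362, with the block 5.12e-07), among the most abundant transcripts of the rises. LAMC1, the laminin gamma-1 chain, was at 136 and 148 FPKM at 24 h and 258 and 271 FPKM at 48 h (log2 fold-change 0.89, limma adjusted p = 0.012, with the block 8.39e-06), so it rose only with the block. LAMA1, the laminin alpha-1 chain, was at 38.9 and 38.8 FPKM at 24 h and 28.2 and 26.7 FPKM at 48 h (log2 fold-change −0.49, limma adjusted p = 0.094, with the block 0.000359) and fell only with it. Among the larger falls with the block were SPP1, osteopontin, at 235 and 289 FPKM at 24 h and 123 and 162 FPKM at 48 h, ECM1 at 98.3 and 95.5 FPKM at 24 h and 52.8 and 54.2 FPKM at 48 h and POSTN, periostin, at 20.8 and 27.7 FPKM at 24 h and 12.9 and 18 FPKM at 48 h.

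Of 18 compared collagens 5 rose and 0 fell, and with the block 11 rose and 1 fell, with a median of 0.75. COL5A3 was at 3.36 and 1.76 FPKM at 24 h and 29.9 and 23.9 FPKM at 48 h (log2 fold-change 2.998, standard error 0.26, limma adjusted p = 0.00215, with the block 1.88e-06). It encodes a chain of collagen V, as COL5A2 does, which was at 8.97 and 11.7 FPKM at 24 h and 28.3 and 32 FPKM at 48 h (log2 fold-change 1.47, limma adjusted p = 0.00695, with the block 1.27e-05). COL11A1, a fibril collagen of cartilage, was at 98.9 and 123 FPKM at 24 h and 256 and 295 FPKM at 48 h (log2 fold-change 1.31, limma adjusted p = 0.00797, with the block 1.88e-06). COL9A2 fell only with the block, from 5.85 and 3.95 FPKM to 3.28 and 2.93 FPKM. When any 1 of the 24 h or 48 h libraries was left out, COL5A3 was the only collagen past the threshold.

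Among 21 thrombospondins, CCN proteins and YAP targets 4 rose and 0 fell, and with the block 14 rose and 1 fell, with a median of 0.52. THBS1 (chr15:39873280-39891667), which encodes the matrix glycoprotein thrombospondin 1, was at 45.2 and 44.2 FPKM at 24 h and 209 and 221 FPKM at 48 h (log2 fold-change 2.24, standard error 0.14, limma adjusted p = 0.00124, with the block 5.73e-07). From 1.18 and 1.31 FPKM under DMSO it climbed steeply at both steps. The classical YAP targets CYR61 and CTGF encode secreted CCN proteins. CYR61 was at 16.2 and 16.8 FPKM at 24 h and 57.9 and 59.1 FPKM at 48 h (log2 fold-change 1.76, limma adjusted p = 0.00215, with the block 2.70e-06), and CTGF was at 6.09 and 4.9 FPKM at 24 h and 21 and 20.6 FPKM at 48 h (log2 fold-change 1.76, limma adjusted p = 0.00283, with the block 6.36e-06). CTGF was no higher at 24 h than under DMSO, at 7.16 and 7.2 FPKM. NOV, another CCN protein, was at 78 and 91.5 FPKM at 24 h and 189 and 246 FPKM at 48 h (log2 fold-change 1.34, limma adjusted p = 0.0161, with the block 5.58e-06), far above its DMSO level of 3.07 and 4.52 FPKM, and passed only with the block. AXL, a receptor tyrosine kinase and YAP target, fell only with the block, from 4.41 and 4.16 FPKM to 2.72 and 2.64 FPKM.

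Of 30 actomyosin and contractile genes 6 rose and 0 fell, and with the block 22 rose and 1 fell, with a median of 0.71. ACTA2, smooth muscle actin, was at 21.6 and 20.2 FPKM at 24 h and 78.9 and 74.4 FPKM at 48 h (log2 fold-change 1.83, standard error 0.16, limma adjusted p = 0.00215, with the block 1.52e-06), against 11.6 and 9.59 FPKM under DMSO. CSRP2, a LIM protein of smooth muscle, was at 36.1 and 45.2 FPKM at 24 h and 111 and 125 FPKM at 48 h (log2 fold-change 1.52, limma adjusted p = 0.00446, with the block 1.88e-06), and TPM1, a tropomyosin, was at 20.1 and 23.8 FPKM at 24 h and 58.1 and 60.2 FPKM at 48 h (log2 fold-change 1.40, limma adjusted p = 0.00499, with the block 4.45e-06). Both had stood near their DMSO levels at 24 h. MYLK, the myosin light chain kinase, moved against the list and fell only with the block, from 10.8 and 12 FPKM to 3.44 and 4.64 FPKM. The CArG box, which the serum response factor reads, matched in 7 of 28 promoters of this list, against 1.29% of all promoters, which is again a match of letters only.

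Integrins and focal adhesion genes connect the matrix to that cytoskeleton. None of the 32 compared passed the threshold, and the block gave 15 rises and 5 falls, with a median of 0.34. ITGA1, a collagen-binding integrin, was at 6.44 and 8.57 FPKM at 24 h and 19.2 and 23.7 FPKM at 48 h (log2 fold-change 1.41, limma adjusted p = 0.0135, with the block 9.19e-06). ITGB8 was at 1.01 and 1.21 FPKM at 24 h and 3.75 and 5.2 FPKM at 48 h and ACTN1, the actin crosslinker alpha-actinin 1, at 8.13 and 6.84 FPKM at 24 h and 23.4 and 17.5 FPKM at 48 h, and the 3 genes rose only with the block. ITGB1, the shared beta-1 chain, was at 62.9 and 82.1 FPKM at 24 h and 83.4 and 117 FPKM at 48 h (log2 fold-change 0.45, limma adjusted p = 0.382, with the block 0.000499). PTK2, which encodes focal adhesion kinase, was at 26.8 and 30.8 FPKM at 24 h and 28.2 and 31.2 FPKM at 48 h (log2 fold-change 0.04, limma adjusted p = 0.918, with the block 0.568), and its ranges at the 2 times overlapped. ITGB3, the vitronectin receptor chain, was at 29.1 and 29.5 FPKM at 24 h and 15.5 and 15 FPKM at 48 h (log2 fold-change −0.90, limma adjusted p = 0.0131, with the block 2.52e-05), far below 167 and 181 FPKM under DMSO. ITGB3, ITGA10 at 1.34 and 1.27 FPKM at 24 h and 0.163 and 0.282 FPKM at 48 h and ITGA4 at 79.9 and 93.9 FPKM at 24 h and 52.4 and 63.7 FPKM at 48 h fell only with the block.

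Of 14 compared EMT factors and cadherins 1 rose and 0 fell, and with the block 7 rose and 3 fell. CLDN1, a tight junction protein, was at 4.9 and 6.52 FPKM at 24 h and 32.9 and 43.1 FPKM at 48 h (log2 fold-change 2.54, standard error 0.22, limma adjusted p = 0.00215, with the block 8.06e-07). CDH6, a cadherin of the neural crest, at 3.75 and 5.15 FPKM at 24 h and 9.39 and 13.3 FPKM at 48 h, and VIM, vimentin, at 1427 and 1151 FPKM at 24 h and 2702 and 2295 FPKM at 48 h, rose only with the block. CDH1, E-cadherin, was at 1 and 1.18 FPKM at 24 h and 0.204 and 0.379 FPKM at 48 h and fell only with the block, as did CTNNB1, beta-catenin, at 242 and 307 FPKM at 24 h and 199.8 and 258 FPKM at 48 h.

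Of 27 proteases and inhibitors 5 rose and 1 fell, and with the block 13 rose and 4 fell. ADAM23, a membrane protein of the ADAM family found in brain, was at 13.3 and 14.6 FPKM at 24 h and 75.4 and 72.1 FPKM at 48 h (log2 fold-change 2.32, standard error 0.15, limma adjusted p = 0.00124, with the block 8.04e-07). ADAM19 of the same family was at 3.82 and 4.21 FPKM at 24 h and 17 and 19 FPKM at 48 h (log2 fold-change 1.92, limma adjusted p = 0.00203, with the block 2.43e-06). PLAT, tissue plasminogen activator, was at 93.7 and 94.8 FPKM at 24 h and 325 and 333 FPKM at 48 h (log2 fold-change 1.79, limma adjusted p = 0.00145, with the block 5.12e-07), against 30.4 and 32.2 FPKM under DMSO. The gene that fell was SERPINA3. MMP1, interstitial collagenase, at 11.3 and 11.1 FPKM at 24 h and 3.14 and 4.52 FPKM at 48 h, and SERPINF1 at 127 and 109 FPKM at 24 h and 72.3 and 66.7 FPKM at 48 h fell only with the block.

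Among receptors and ligands the changes went both ways. Of 20 receptor tyrosine kinases 2 rose and 1 fell, and with the block 7 rose and 4 fell, with a median of −0.02. EPHB1, an ephrin receptor, was at 0.178 and 0.239 FPKM at 24 h and 3.47 and 3.85 FPKM at 48 h (log2 fold-change 1.95, standard error 0.13, limma adjusted p = 0.00128, with the block 2.18e-05), below 1 FPKM in every DMSO and 24 h library. FLT1, a receptor for VEGF, was at 4.91 and 7.2 FPKM at 24 h and 19.1 and 20.7 FPKM at 48 h (log2 fold-change 1.58, limma adjusted p = 0.00979, with the block 1.50e-05). MERTK, a receptor of the AXL family, was at 16.1 and 19.4 FPKM at 24 h and 5.88 and 5.42 FPKM at 48 h (log2 fold-change −1.49, limma adjusted p = 0.00561, with the block 2.62e-05). EPHA3 fell only with the block, from 43.6 and 55.8 FPKM to 23 and 29.9 FPKM. Without replicate 1 of the 24 h group none of the 20 passed the threshold.

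Semaphorins, plexins, netrins and ephrins guide axons and migrating crest cells. Of 36 compared 2 rose and 1 fell, and with the block 12 rose and 7 fell. SEMA3D was at 1.66 and 2.17 FPKM at 24 h and 13.9 and 20.5 FPKM at 48 h (log2 fold-change 2.63, standard error 0.22, limma adjusted p = 0.0021, with the block 3.11e-06), and NTN4, a netrin, was at 0.963 and 0.69 FPKM at 24 h and 2.82 and 3.82 FPKM at 48 h (log2 fold-change 1.24, limma adjusted p = 0.00997, with the block 0.000602), a call that was lost when any 1 of the 6 libraries was left out. SEMA6A was at 36.1 and 39.3 FPKM at 24 h and 14.2 and 14.7 FPKM at 48 h (log2 fold-change −1.33, limma adjusted p = 0.00527, with the block 5.90e-06), where the 24 h libraries were the highest of the line. SEMA3B, at 72.9 and 39.5 FPKM at 24 h and 191 and 114 FPKM at 48 h, rose only with the block, and its replicate 1 exceeded its replicate 2 at both times. EFNA1, at 6.93 and 5.65 FPKM at 24 h and 2.26 and 3.72 FPKM at 48 h, and SEMA6B, at 36.9 and 18.1 FPKM at 24 h and 21.7 and 11 FPKM at 48 h, fell only with the block.

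None of 26 TGF-beta and BMP pathway genes passed the threshold, and the block gave 5 rises and 4 falls, where over all genes it gave 15% and 18.7%. TGFBR2, the type II receptor, was at 52.4 and 61 FPKM at 24 h and 108 and 129 FPKM at 48 h (log2 fold-change 1.05, limma adjusted p = 0.0164, with the block 8.31e-06), and SMAD3, its signal carrier, was at 5.19 and 6.43 FPKM at 24 h and 9.68 and 10.7 FPKM at 48 h. BMP1, a protease that matures collagen, was at 24.6 and 16 FPKM at 24 h and 35.6 and 27 FPKM at 48 h. Those 3 rose only with the block, while the BMP targets SMAD6, ID2 and ID4 fell only with it, SMAD6 from 7.24 and 3.95 FPKM to 2.63 and 1.52 FPKM, ID2 from 13 and 17.5 FPKM to 8.8 and 8.59 FPKM and ID4 from 7.44 and 8.3 FPKM to 4.38 and 5.52 FPKM. Of 30 Wnt and Notch genes none passed without the block either, and with it 9 rose and 1 fell. HES4, a Notch target, was at 0.743 and 0.282 FPKM at 24 h and 6.59 and 2.42 FPKM at 48 h (log2 fold-change 1.77, limma adjusted p = 0.0812, with the block 0.000181). Each HES4 replicate rose by a similar factor, but replicate 1 stood above replicate 2 at both times. JAG1, a Notch ligand, at 3.34 and 2.87 FPKM at 24 h and 7.06 and 6.52 FPKM at 48 h, and FZD8, a Wnt receptor, at 1.66 and 0.474 FPKM at 24 h and 2.81 and 2.05 FPKM at 48 h, rose only with the block, and LEF1, at 9.41 and 9.1 FPKM at 24 h and 6.73 and 7.19 FPKM at 48 h, fell only with it.

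Of 12 compared ion channels 0 rose and 1 fell, and with the block 3 rose and 3 fell. KCNJ10, a potassium channel of glia, was at 8.14 and 10.2 FPKM at 24 h and 2.69 and 2.74 FPKM at 48 h (log2 fold-change −1.44, standard error 0.17, limma adjusted p = 0.00527, with the block 3.86e-05), with 0.815 and 0.991 FPKM under DMSO. KCNK5 at 0.198 and 0.149 FPKM at 24 h and 1.85 and 1 FPKM at 48 h, KCNS3 at 12.5 and 15.3 FPKM at 24 h and 27.8 and 28.4 FPKM at 48 h and KCNA2 at 2.52 and 2.66 FPKM at 24 h and 4.71 and 4.24 FPKM at 48 h rose only with the block. KCNJ13 at 9.44 and 11.3 FPKM at 24 h and 4.66 and 6.42 FPKM at 48 h fell only with it.

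Of 29 interferon-stimulated genes 0 rose and 1 fell, and with the block 4 rose and 4 fell, against 15% and 18.7% of all genes. The fall was of ISG20, an RNA exonuclease, at 6.34 and 7.53 FPKM at 24 h and 1.22 and 1.51 FPKM at 48 h (log2 fold-change −1.75, standard error 0.24, limma adjusted p = 0.00933, with the block 0.000305). IFIT1, a sensor of viral RNA, was at 3.09 and 3.49 FPKM at 24 h and 6.24 and 9.24 FPKM at 48 h, IFIT2 at 0.683 and 1.33 FPKM at 24 h and 1.79 and 2.55 FPKM at 48 h and IFIT3 at 4.72 and 6.18 FPKM at 24 h and 6.94 and 9.61 FPKM at 48 h, and they rose only with the block. PARP9 at 8.08 and 10.6 FPKM at 24 h and 5.72 and 7.67 FPKM at 48 h and IRF9 at 22.6 and 23.1 FPKM at 24 h and 17.3 and 17.7 FPKM at 48 h fell only with it. Of 26 antigen presentation genes 17 were listed at 0 in all 6 COLO858 libraries and 5 were compared, none of which passed with or without the block. B2M, the shared light chain of class I molecules, was at 426 and 551 FPKM at 24 h and 419.7 and 559 FPKM at 48 h (log2 fold-change −0.00, limma adjusted p = 0.999, with the block 0.991), so its ranges at the 2 times overlapped. Of 16 chemokines, cytokines and NF-kB feedback genes 0 rose and 1 fell, and with the block 1 rose and 6 fell. ICAM1, an adhesion molecule for leukocytes, was at 34.4 and 32.7 FPKM at 24 h and 14.9 and 14 FPKM at 48 h (log2 fold-change −1.17, limma adjusted p = 0.00624, with the block 5.41e-06), and it missed the threshold when any 1 of the 6 libraries was left out. CX3CL1 at 7.37 and 7.42 FPKM at 24 h and 2.65 and 2.96 FPKM at 48 h and SOD2 at 61 and 68.2 FPKM at 24 h and 34.5 and 39.7 FPKM at 48 h fell, and LIF at 8.61 and 7.43 FPKM at 24 h and 13.5 and 13.7 FPKM at 48 h rose, only with the block.

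Of 32 ATF4 and amino acid stress genes 0 rose and 1 fell, and with the block 2 rose and 11 fell, against 15% and 18.7% of all genes, with a median of −0.24. SLC7A5, a transporter of large neutral amino acids, was at 255 and 201 FPKM at 24 h and 82 and 65.3 FPKM at 48 h (log2 fold-change −1.62, standard error 0.20, limma adjusted p = 0.00667, with the block 5.77e-07). DDIT4, an inhibitor of mTORC1, at 58.2 and 55.6 FPKM at 24 h and 30.7 and 26.1 FPKM at 48 h, and DDIT3, the stress factor CHOP, at 27.9 and 31 FPKM at 24 h and 17.4 and 17.8 FPKM at 48 h, fell only with the block. CEBPG at 3.93 and 6.36 FPKM at 24 h and 5.45 and 8.46 FPKM at 48 h and SLC1A5 at 28.2 and 23.2 FPKM at 24 h and 35.2 and 29.5 FPKM at 48 h rose only with it. None of 28 genes of the unfolded protein response passed the threshold, while the block gave 2 rises and 17 falls, and their median was −0.34. HSPA5, the chaperone BiP of the endoplasmic reticulum, was at 291 and 326 FPKM at 24 h and 160.1 and 194 FPKM at 48 h (log2 fold-change −0.80, limma adjusted p = 0.0322, with the block 1.46e-05). MANF at 81.1 and 70.3 FPKM at 24 h and 37.2 and 38.6 FPKM at 48 h and HERPUD1 at 41 and 44 FPKM at 24 h and 23.4 and 22.9 FPKM at 48 h also fell only with the block, and PPP1R15A at 42.3 and 42.4 FPKM at 24 h and 63.8 and 56.3 FPKM at 48 h and SEC24D at 8.7 and 11.8 FPKM at 24 h and 11.9 and 15.5 FPKM at 48 h rose only with it.

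Heat shock proteins and chaperones leaned the other way. Of 27 compared, CRYAB rose and 0 fell, and with the block 11 rose and 1 fell. HSPB1, a small heat shock protein, was at 602 and 306 FPKM at 24 h and 1164 and 664 FPKM at 48 h (log2 fold-change 1.03, standard error 0.44, limma adjusted p = 0.242, with the block 4.83e-06). Replicate 1 was about as far above replicate 2 as 48 h was above 24 h, so the ranges touched closely without overlap. HSP90AA1, the inducible HSP90, was at 257 and 332 FPKM at 24 h and 478 and 597 FPKM at 48 h. HSPB1 and HSP90AA1 rose only with the block. HSPA4, which fell only with the block, was at 62 and 83.7 FPKM at 24 h and 48.6 and 65.4 FPKM at 48 h.

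Of 34 cholesterol and fatty acid synthesis genes 0 rose and 1 fell, and with the block 2 rose and 21 fell, with a median of −0.40. SCD, the desaturase that makes oleic acid, was at 101 and 119 FPKM at 24 h and 27.2 and 33.1 FPKM at 48 h (log2 fold-change −1.83, standard error 0.18, limma adjusted p = 0.00284, with the block 5.12e-07), against 229.6 and 277 FPKM under DMSO. ABCA1, which exports cholesterol, was at 15.3 and 19.5 FPKM at 24 h and 7.04 and 7.86 FPKM at 48 h. It fell only with the block, and MVK at 5.2 and 3.74 FPKM at 24 h and 7.05 and 5.24 FPKM at 48 h and FDPS at 59.2 and 56.7 FPKM at 24 h and 71.3 and 70.1 FPKM at 48 h rose only with it. Oxidative phosphorylation and PGC1 genes had 36 compared members, of which PPARGC1A fell, and with the block 1 rose and 26 fell, with a median of −0.31. ESRRA, the nuclear receptor that PGC1-alpha activates, was at 103 and 70.1 FPKM at 24 h and 40.1 and 32.5 FPKM at 48 h (log2 fold-change −1.21, limma adjusted p = 0.0298, with the block 1.14e-05). ATP5G3, a subunit of ATP synthase, was at 99.4 and 129.7 FPKM at 24 h and 56.3 and 88.5 FPKM at 48 h. ESRRA and ATP5G3 fell only with the block. NRF1, which rose only with the block, was at 3.25 and 3.52 FPKM at 24 h and 6.48 and 6.16 FPKM at 48 h.

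None of 31 glycolysis and hypoxia genes, 41 MYC and ribosome biogenesis genes or 42 lysosome genes passed the threshold. The block gave 3 rises and 13 falls in the first list, 3 and 19 in the second and 8 and 9 in the third. In glycolysis PFKFB4, a regulator of the pathway, was at 16.5 and 16.5 FPKM at 24 h and 8.38 and 6.33 FPKM at 48 h, ALDOC, an aldolase, at 54.1 and 51.1 FPKM at 24 h and 29.2 and 29.6 FPKM at 48 h, and PDK3 at 10.2 and 12.1 FPKM at 24 h and 4.95 and 7.04 FPKM at 48 h, all falling only with the block. ADM, a hypoxia-induced peptide, at 3.18 and 1.46 FPKM at 24 h and 7.41 and 5.4 FPKM at 48 h, P4HA2 at 25.1 and 23.8 FPKM at 24 h and 38 and 34 FPKM at 48 h and PFKL at 39.4 and 25 FPKM at 24 h and 54.1 and 37.4 FPKM at 48 h rose only with it. In ribosome biogenesis NPM1, nucleophosmin, was at 616 and 716 FPKM at 24 h and 368 and 450.3 FPKM at 48 h (log2 fold-change −0.71, limma adjusted p = 0.0568, with the block 1.69e-05), WDR12 at 34.3 and 42 FPKM at 24 h and 17.8 and 24.8 FPKM at 48 h and UTP20 at 7.03 and 8.33 FPKM at 24 h and 3.98 and 4.58 FPKM at 48 h, which fell only with the block. UBTF at 36.6 and 35.6 FPKM at 24 h and 45.6 and 46.4 FPKM at 48 h, NOP56 at 95 and 103 FPKM at 24 h and 116 and 120.0 FPKM at 48 h and NOP58 at 34.4 and 47.5 FPKM at 24 h and 39.5 and 58.4 FPKM at 48 h rose only with it. Among lysosome genes TFE3 at 16.6 and 14.5 FPKM at 24 h and 24.3 and 22.5 FPKM at 48 h, SQSTM1 at 211 and 204 FPKM at 24 h and 295 and 292 FPKM at 48 h and PSAP at 799 and 831 FPKM at 24 h and 1109.7 and 1122 FPKM at 48 h rose, and TFEB at 3.78 and 3.29 FPKM at 24 h and 1.09 and 1.45 FPKM at 48 h, NPC1 at 13.7 and 14.5 FPKM at 24 h and 8.99 and 9.01 FPKM at 48 h and ASAH1 at 166 and 191 FPKM at 24 h and 108 and 141 FPKM at 48 h fell, only with the block. TFE3 and TFEB encode related regulators of lysosome genes.

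Most markers of other cell types did not reach the minimum of 1 FPKM at either time. Of 11 endothelial markers none reached the minimum, and their FPKM summed to 0.824 and 0.735 at 24 h and to 1.53 and 1.21 at 48 h. CLDN5 was listed at 0 in both 24 h libraries and was at 0.786 and 0.331 FPKM at 48 h. Of 16 immune markers CD68 alone was compared, and 6 were listed at 0 in all 6 libraries. CD68, a lysosomal protein not particular to immune cells, was at 6.32 and 8.25 FPKM at 24 h and 3.86 and 5.03 FPKM at 48 h. It fell only with the block. Of 15 keratinocyte markers 5 were compared and none passed, while with the block PERP rose, at 15.6 and 18.5 FPKM at 24 h and 18.5 and 28.3 FPKM at 48 h, and KRT18 at 19.2 and 14.9 FPKM at 24 h and 9.31 and 8.78 FPKM at 48 h, KRT8 at 3.87 and 2.47 FPKM at 24 h and 1.89 and 1.76 FPKM at 48 h and DSP at 2.44 and 3.06 FPKM at 24 h and 1.49 and 1.75 FPKM at 48 h fell. Of 13 fibroblast markers 5 were compared, 1 rose and 0 fell, and with the block 3 rose. COL3A1 was at 2.09 and 2.15 FPKM at 24 h and 6.23 and 6.88 FPKM at 48 h (log2 fold-change 1.28, limma adjusted p = 0.00446, with the block 7.25e-05), COL1A1 at 0.542 and 0.467 FPKM at 24 h and 1.54 and 1.15 FPKM at 48 h and PDGFRB at 0.44 and 0.311 FPKM at 24 h and 1.5 and 1.4 FPKM at 48 h. COL1A1 and PDGFRB rose only with the block. The fibroblast markers summed to 19.2 and 22.6 FPKM at 24 h and to 26.9 and 37.2 FPKM at 48 h. They moved with the matrix and collagen genes, and their part in that change was not tested.

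MMACSF served as a control line, and its libraries ask whether the same hours in drug moved the same genes there. Between 24 and 48 h 1 gene rose and 17 fell in MMACSF, and with the block 60 rose and 187 fell. The 1 that rose without the block was RNU12, a small nuclear RNA gene. It was listed at 0 in both 24 h libraries of MMACSF and was at 11.1 and 11.5 FPKM at 48 h. The change differed between the lines for 438 of 12940 genes, 365 of them more positive in COLO858 and 73 more negative, which is 2.82% and 0.564%. Of these 438, 21 were listed at 0 in every drug-treated library of a line, so their difference restates the change in the other line. With the block 1279 were more positive and 1038 more negative, which is 9.88% and 8.02%. The values of the lines stand in separate tables, so only the change within each line was compared. With replicate 1 of the 24 h group of COLO858 left out, 195 were more positive and 26 more negative.

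The cell cycle lists moved apart most. Of 58 G2 and mitosis genes 53 were more positive in COLO858 and 0 more negative, and in MMACSF the median of those compared was −0.99. Of 50 DNA replication genes 38 were more positive, and of 30 DNA repair genes 13. UBE2C was at 18.8 and 16 FPKM at 24 h and 3.59 and 2.64 FPKM at 48 h in MMACSF, and the difference between the changes was 4.85 (standard error 0.23, interaction adjusted p from limma 1.61e-05 without and 1.25e-06 with the block). TOP2A was at 7.01 and 9.11 FPKM at 24 h and 0.654 and 1.01 FPKM at 48 h in MMACSF, a difference of 4.42 (standard error 0.34, interaction adjusted p from limma 9.24e-05 without and 3.97e-07 with the block). MKI67 was at 1.04 and 1.37 FPKM at 24 h and 0.043 and 0.0852 FPKM at 48 h there, a difference of 2.83 (standard error 0.22, interaction adjusted p from limma 0.00011 without and 2.36e-06 with the block). UBE2C and TOP2A fell in MMACSF (limma adjusted p = 0.00416, with the block 0.000279 for UBE2C and limma adjusted p = 0.00768, with the block 0.000155 for TOP2A), while MKI67 fell there only with the block (limma adjusted p = 0.0755, with the block 0.00788). CCND1 differed by 0.93 (standard error 0.16, interaction adjusted p from limma 0.00771 without and 0.000267 with the block), with 21 and 18.8 FPKM at 24 h and 26.6 and 28.3 FPKM at 48 h in MMACSF.

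CRYAB differed by 4.84 (standard error 0.16, interaction adjusted p from limma 1.91e-06 without and 3.97e-07 with the block). In MMACSF it was at 489 and 512 FPKM at 24 h and 426 and 425 FPKM at 48 h, abundant at both times. NGFR was low at both times in MMACSF, at 0.529 and 0.357 FPKM at 24 h and 0.861 and 0.594 FPKM at 48 h, and differed by 3.85 (standard error 0.29, interaction adjusted p from limma 9.35e-05 without and 2.68e-06 with the block). S100B was at 769.7 and 765 FPKM at 24 h and 706 and 640.0 FPKM at 48 h there and differed by 1.35 (standard error 0.14, interaction adjusted p from limma 0.000408 without and 3.74e-06 with the block). Among the genes of adhesion and matrix that the study named, differences past the threshold were found for THBS1, NOV, CNTN6, NCAM1 and LAMC1. They ran from 0.95 for LAMC1 to 2.56 for NOV. In the full lists, 12 of 34 matrix glycoproteins and laminins and 4 of 20 collagens were more positive in COLO858. So were 6 of 21 thrombospondins, CCN proteins and YAP targets and 4 of 31 neuronal adhesion and cytoskeleton genes. None of these lists held a more negative gene. Of 34 integrins and focal adhesion genes 1 was more positive and 1 more negative. THBS1 was at 0.188 and 0.288 FPKM at 24 h and 0.0872 and 0.107 FPKM at 48 h in MMACSF and differed by 2.41 (standard error 0.18, interaction adjusted p from limma 8.10e-05 without and 3.24e-06 with the block). NOV, which in COLO858 passed only with the block, was at 14.7 and 16 FPKM at 24 h and 5.28 and 6.87 FPKM at 48 h in MMACSF and differed by 2.56 (standard error 0.29, interaction adjusted p from limma 0.000755 without and 2.31e-06 with the block). The differences of L1CAM (0.76), FYN (1.02), MAP2 (0.92), JUN (1.15), MITF (−0.79), ITGB1 (0.74), LAMA1 (0.28) and PTK2 (0.10) did not pass the threshold without the block.

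Among genes whose difference passed the threshold without the block and that were not listed at 0 throughout the drug-treated libraries of a line, GJB1 and FAM78B had the most negative differences. GJB1 was at 10.1 and 8.37 FPKM at 24 h and 11.3 and 8.61 FPKM at 48 h in MMACSF and differed by −2.37 (standard error 0.27, interaction adjusted p from limma 0.000777 without and 4.65e-06 with the block). FAM78B, a gene of unknown function, was at 15.5 and 11.1 FPKM at 24 h and 3.04 and 2.67 FPKM at 48 h in COLO858 and at 31.4 and 23.4 FPKM at 24 h and 42.6 and 29 FPKM at 48 h in MMACSF, and differed by −2.25 (standard error 0.40, interaction adjusted p from limma 0.00851 without and 1.36e-05 with the block). RNU6ATAC was listed at 0 in all 4 drug-treated libraries of MMACSF, so no change could be compared there. SERPINA3, the largest fall of a protein-coding gene in COLO858, was at 23.5 and 23.4 FPKM at 24 h and 0.137 and 0.602 FPKM at 48 h in MMACSF, where it fell too (limma adjusted p = 0.00102, with the block 0.000307), and its difference of 0.52 (standard error 0.25, interaction adjusted p from limma 0.326 without and 0.11 with the block) missed the threshold.

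**Figure D5:**
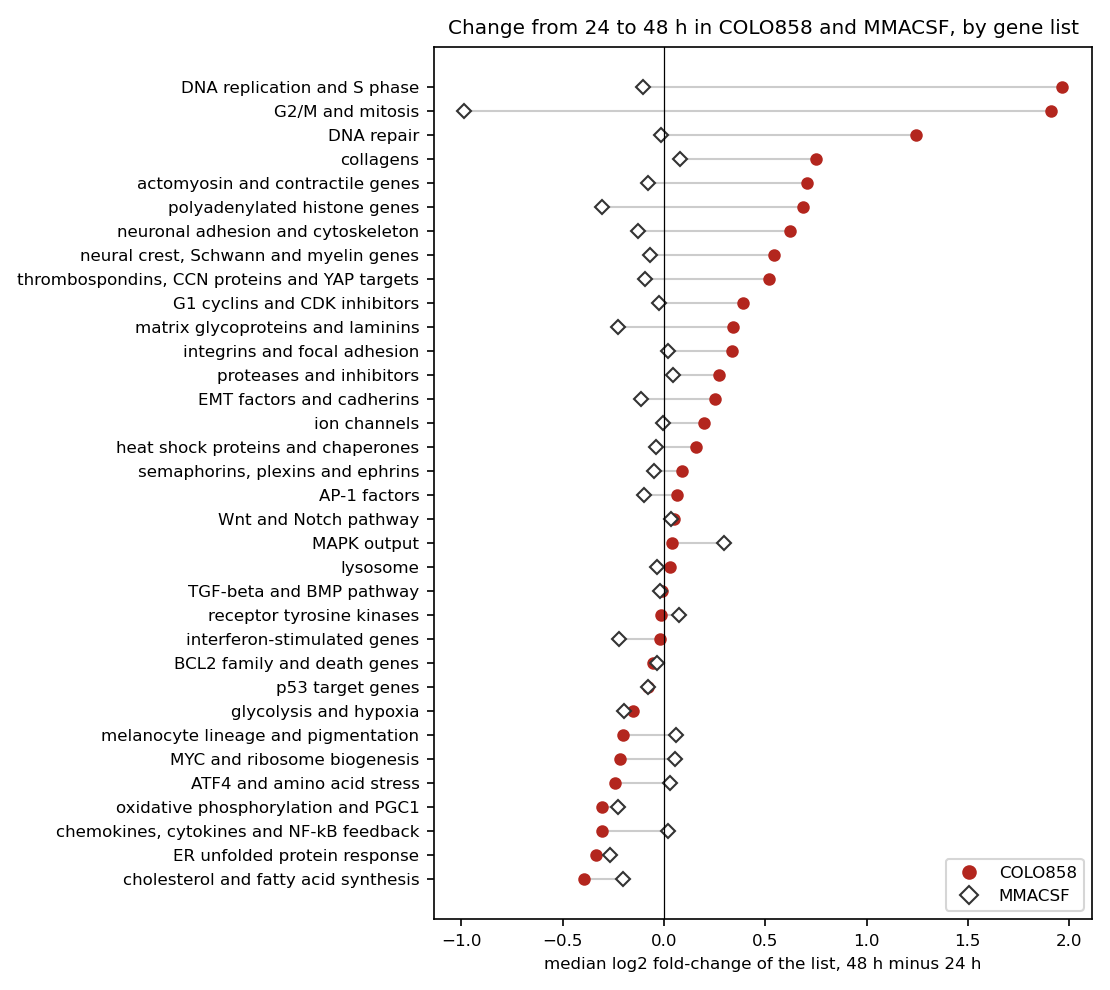
Median log2 fold-change from 24 to 48 h (horizontal axis) of each gene list with 10 or more compared members in COLO858 (red circles) and in MMACSF (open diamonds), over the members compared in each line. The widest gap is that of G2 and mitosis genes, at 1.91 in COLO858 and −0.99 in MMACSF.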

How the data were processed

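Cells of both lines were plated and treated a day later, and stranded poly(A) libraries, to which spike-in RNA had been added, were read from a single end over 50 bases. The authors mapped reads with TopHat to hg19 and made gene values with Cuffdiff, as the submitters' processing notes and the paper state, and deposited FPKM, 1 table per line with 23273 genes. Program versions, the annotation, the strand setting and the library scaling are not given in the sources used here. Read depth is unknown and whole reads could not be recovered, so no counting interval is given.

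All 12 columns were used. A model of 3 groups was fitted to log2(FPKM + 1) of the 6 COLO858 libraries with limma 3.58.1 in R 4.3.3, with empirical Bayes moderation, a mean-variance trend and two-sided p-values adjusted by Benjamini-Hochberg over 12057 genes (threshold 0.01). A second fit took the replicate number as a block. Differences from MMACSF came from a model of 6 groups over 12 libraries. Coordinates are from GENCODE on GRCh37, and promoters from RefSeq.

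The comparison and the 39 gene lists were chosen with earlier results of these data known. The rule for naming genes took those the study discussed for this experiment, the 10 largest rises and falls, up to 3 rises and 3 falls per list, filled up with genes that passed only with the block, the most abundant member of a list with none, and the 3 largest differences from MMACSF each way, 202 genes in all, a few of which are not reported here. E2F1, NUSAP1, ANLN and KIF18B were named besides for their promoters, after their values were seen, and the motifs were chosen at that stage too. Alternatives were another pseudocount, other minimums, median-ratio rescaling, no trend, fewer libraries, small RNA genes kept, a threshold of 0.05 and leaving out each COLO858 library.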

Additional observations from a re-analysis of the deposited data

Results flagged for a closer look

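The change from 24 to 48 h differed between COLO858 and MMACSF, by the interaction term of limma with an adjusted p under 0.01, for 14 of the genes that the study discussed or that differed most, without those listed at 0 in every drug-treated library of a line. Of all 438 differences past the threshold 83.3% were positive. The log2 differences of these 14 genes, COLO858 minus MMACSF, were positive for 12 of them. They were 4.85 for UBE2C (limma adjusted p = 1.61e-05, with the block 1.25e-06), 4.84 for CRYAB (limma adjusted p = 1.91e-06, with the block 3.97e-07), 4.42 for TOP2A (limma adjusted p = 9.24e-05, with the block 3.97e-07) and 3.85 for NGFR (limma adjusted p = 9.35e-05, with the block 2.68e-06). They were 2.83 for MKI67 (limma adjusted p = 0.00011, with the block 2.36e-06), 2.56 for NOV (limma adjusted p = 0.000755, with the block 2.31e-06), 2.41 for THBS1 (limma adjusted p = 8.10e-05, with the block 3.24e-06) and 2.13 for CNTN6 (limma adjusted p = 0.00103, with the block 6.09e-05). Smaller differences were those of S100B, 1.35 (limma adjusted p = 0.000408, with the block 3.74e-06), NCAM1, 1.16 (limma adjusted p = 0.00746, with the block 0.000132), LAMC1, 0.95 (limma adjusted p = 0.00954, with the block 3.81e-05), and CCND1, 0.93 (limma adjusted p = 0.00771, with the block 0.000267). Negative differences were −2.37 for GJB1 (limma adjusted p = 0.000777, with the block 4.65e-06) and −2.25 for FAM78B (limma adjusted p = 0.00851, with the block 1.36e-05). UBE2C, CRYAB, TOP2A, GJB1 and FAM78B were taken as the largest differences past the threshold, so their passing follows from that choice. With 2 libraries per group no library could be tested for standing apart from its group.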

How the results depend on the processing

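The numbers of genes higher and lower at 48 h, 283 and 70, moved with several choices. They were 1814 and 2257 with the replicate block, 1598 and 1790 with the block in only the 24 h and 48 h libraries, 131 and 26 with no minimum, 175 and 35 with a minimum of 10 FPKM, 164 and 35 with small RNA genes kept, and 656 and 333 at a threshold of 0.05. Leaving out 1 library gave 27 to 288 and 4 to 56. The differences from MMACSF, 365 more positive and 73 more negative, were 1279 and 1038 with the replicate block, 743 and 369 with the block in only the 24 h and 48 h libraries, and 618 and 244 at a threshold of 0.05. With only the 24 h and 48 h libraries 24 were more negative, and leaving out 1 library gave 195 to 321 and 25 to 50. The cause of these shifts was not tested. A pseudocount of 0.1, median-ratio rescaling and no trend kept all 4 counts within 1.5 times. The share of rises among the calls was 44.6% with the block and 66.3% at a threshold of 0.05, against 80.2%. Same-numbered libraries deviated together, with a correlation of the replicate difference between 24 and 48 h of 0.760 over genes, and of 0.784 and 0.796 between DMSO and these times. With 2 pairs and nothing in the labels on what a number marks, this is a hint from the data, and the block is not taken as the design. With equal groups the block leaves each fold-change as it is by construction. B2M turned to 0.070 with median-ratio rescaling and ran from −0.21 to 0.21 when a library was left out, upward without replicate 2 at 24 h or replicate 1 at 48 h. PTK2 ran from −0.051 to 0.14, downward without replicate 1 at 24 h or replicate 2 at 48 h, and NOP58 from −0.032 to 0.52, downward without replicate 2 at 48 h. Of the 68 genes taken by the naming rule and past the threshold, 52, 42, 34 and 43 missed it without replicate 1 and 2 at 24 h and replicate 1 and 2 at 48 h. Depth is unknown, so what it limits could not be stated.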
